A study of Mus musculus with 16 samples.

Results

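The effect of phenobarbital (PB) on mouse liver outside tumors was read from 6 control livers on a reverse-phase protein array, in which lysates are printed on a chip and each antibody gives 1 fluorescence signal per lysate. The members were chosen by their labels: 3 of the 16 samples of the series were non-tumor liver of the PB arm (0.05% PB, replicates 4 to 6, whose titles name them controls of the Ctnnb1 tumors), and 3 were non-tumor liver of the arm without PB (labelled H2O, replicates 1 to 3, controls of the Ha-ras tumors). All 6 came from male C3H/HeJ mice, and according to the series' design text every mouse had first received 1 injection of the liver carcinogen diethylnitrosamine (DEN; 10 or 90 µg per g, at 2 or 6 weeks of age). Which dose and age belonged to which sample was not assigned here, so DEN and PB cannot be told apart where they went together. The labels also differ on PB itself, with 28 to 36 weeks of diet in the design text, 27 weeks in the sample characteristics and 28 days of drinking water in the protocols. Age at sacrifice, and whether the control tissue came from tumor-bearing animals, are not given in the sources used here. Nothing says that the 3 samples of a group were separate animals, so the spread behind the p-values below may in part be technical.

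PB is the classical inducer of hepatic drug metabolism. It is known to act on the nuclear receptor CAR without binding to it, by blocking signalling of the epidermal growth factor receptor (EGFR), after which CAR enters the nucleus, pairs with RXRA and switches on genes of the CYP2B, CYP2C and CYP3A families, of cytochrome P450 reductase (POR) and of glucuronidating enzymes. These enzymes sit mostly in hepatocytes around the central vein, where beta-catenin signalling also maintains glutamine synthetase (GLUL), CYP1A2 and CYP2E1. In rodents long PB treatment after DEN is known to promote tumors with activated beta-catenin.

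Each liver had a signal for 158 antibodies to 101 proteins, 50 of the antibodies directed at a phosphorylation site. Their median signals ran from 0.466 to 0.633 relative fluorescence units (RFU). The medians of the 19 blanks, which had secondary antibody alone, ran from 0.0840 to 0.138. An antibody is called dim in a liver where it gave under 2 times its blank; 107 antibodies were dim in none of the 6 livers and 23 were dim in each. Of the 7 hepatocyte markers listed, 3 were on the array (HNF4A, GLUL and CYP2E1) and all 6 livers read above the limit for each. None of the 16 listed markers of bile duct, stellate cells, endothelium or leukocytes was on it, so the makeup of the tissue could not be followed. In a tissue lysate, fewer cells of a type and less protein per cell cannot be told apart. Signals were compared as log2 values after each sample had been centred on its median, because uncentred signals of PB livers were mostly higher, by a median of 0.27 log2 over all antibodies against 0.06 after centring.

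Of the 158 antibodies, 3 passed, and all of them target the P450 system: CYP2C8 (5.62-fold higher with PB), CYP2B6_1 (3.06-fold) and POR (2.38-fold). These 3 calls are 1.90% of the 158 antibodies tested (limma, Benjamini-Hochberg adjusted p under 0.05). No antibody was called lower, and at an unadjusted p under 0.05 there were 14 (8.86%), of which 11 were higher (6.96%) and 3 lower (1.90%). That unadjusted split depended on the scaling, with 45 higher and 0 lower without centring, 9 and 11 under quantile normalization, and 34 and 10 with array weights. At the adjusted threshold, quantile normalization gave 2 calls higher (CYP2C8 and CYP2B6_1) and 1 lower (the kinase MAP2K1), and POR was not called. The list of 18 antibodies to drug metabolism proteins held all 3 calls and 8 of the 11 that were higher at the unadjusted threshold. Its median log2 difference was 0.68, against 0.06 over all 158 antibodies. In 12 of the 18 every PB liver read above every no-PB liver after centring, where 20.9% of all antibodies (33) did, and in none was every PB liver lower, where 5.70% (9) did. All 18 differences were above 0, where 63.3% of all antibodies (100) were. Still, 3 of the smallest turned below 0 with blanks subtracted (CYP1A2_2, CYP2B6_2 and RXRA), and 3 did under quantile normalization (CYP2D6, CYP3A4_1 and RXRA). The members had been chosen with earlier results known, so these counts describe the list and were not tested.

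**Figure D1:**
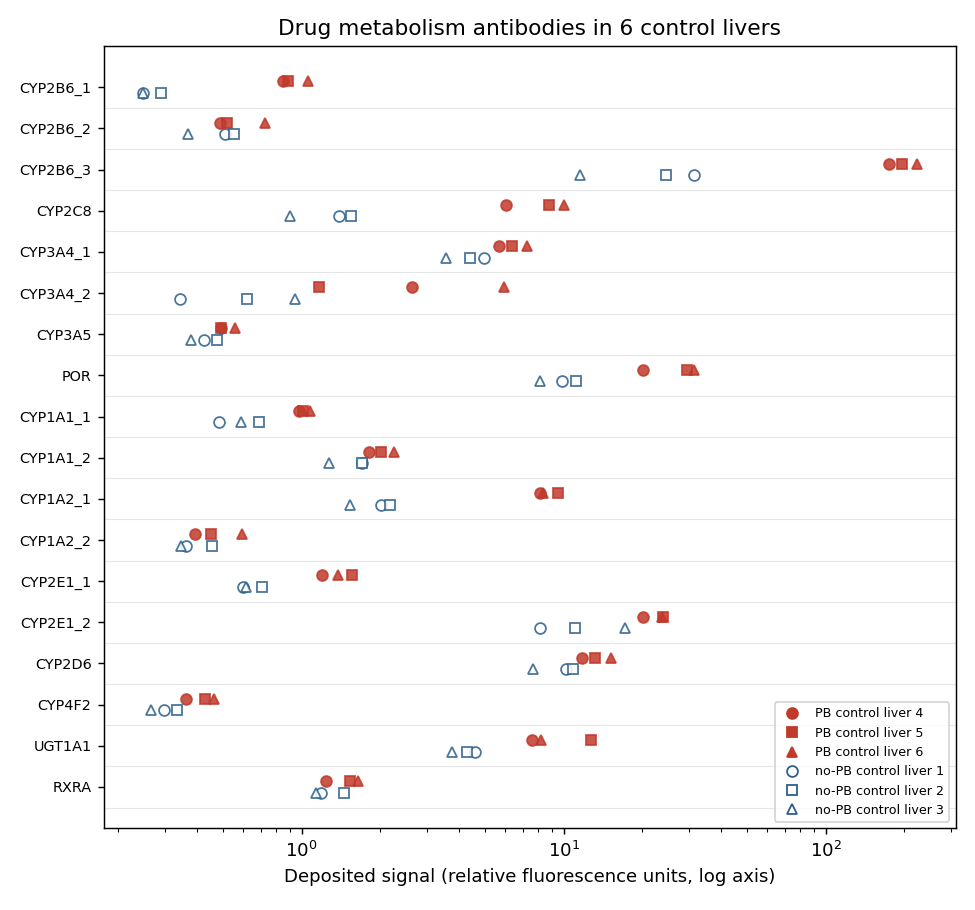
Deposited signal (relative fluorescence units, log axis) of the 18 drug metabolism antibodies in the 3 PB control livers (filled red) and the 3 no-PB control livers (open blue), 1 point per sample. The groups lie well apart for CYP2C8, CYP2B6_1, CYP2B6_3, CYP1A2_1 and POR, and are mixed for CYP2B6_2, CYP1A2_2 and RXRA.

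**Figure D2:**
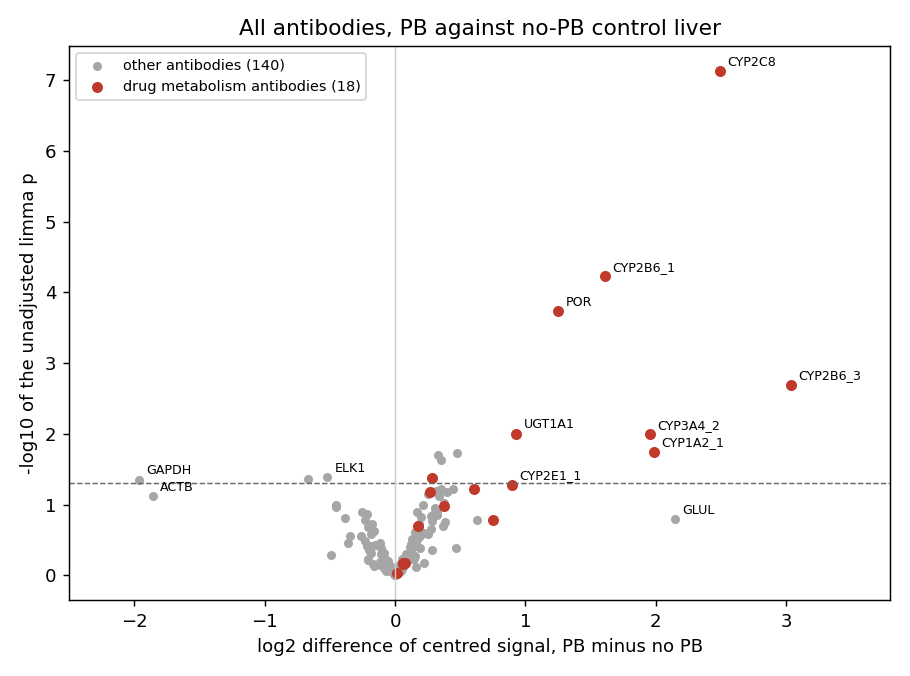
Log2 difference of the centred signal (PB minus no PB) against -log10 of the unadjusted limma p for 158 antibodies, with the 18 drug metabolism antibodies in red and a dashed line at the unadjusted threshold. The red points lie at 0 or to the right of it, from 0.01 (RXRA) to 3.04 (CYP2B6_3), and most grey points lie within 0.5 of 0.

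CYP2C8 stands for a P450 subfamily that oxidises drugs and arachidonic acid and is a known CAR target. It read 6.04, 8.78 and 10.1 RFU in PB livers 4, 5 and 6, and 1.39, 1.54 and 0.906 in no-PB livers 1, 2 and 3. The groups were far apart, with the lowest PB liver 3.93 times the highest no-PB liver. The log2 difference was 2.49 ± 0.25 (SE, n = 3 and 3, limma adjusted p = 1.2e-05, 95% interval 1.95 to 3.03). CYP2C8 passed in all 17 alternative analyses, with log2 differences from 2.18 to 2.70. The human name does not say which mouse protein was bound: RefSeq lists 15 mouse protein-coding genes of the Cyp2c family, none of them named CYP2C8.

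The CYP2B family is the classical PB-responsive P450 group, and 3 antibodies carry the human name CYP2B6. CYP2B6_1 read 0.847, 0.888 and 1.06 RFU with PB and 0.248, 0.292 and 0.248 without. All 3 PB livers lay close together and well above the others, at 11.4 times the blank on average against 4.27 times. The log2 difference was 1.61 ± 0.29 (limma adjusted p = 0.00468), and it passed in all 17 alternatives. CYP2B6_3 read 175, 195 and 223 RFU with PB against 31.3, 24.5 and 11.5. The groups were again apart, and the log2 difference of 3.04 was the largest on the array, but its SE of 0.80 left it above the threshold (adjusted p = 0.080). That SE is pooled over all 4 groups of the series, among them Ha-ras tumors whose CYP2B6_3 signals ran from -8.84 (dropped from the fit) to 3.81. In a fit of the 6 control livers alone the same difference had an SE of 0.32 and passed (adjusted p = 0.00221). CYP2B6_2 behaved otherwise, with 0.487, 0.519 and 0.726 RFU with PB and 0.511, 0.550 and 0.370 without. Its groups overlapped, at 2.86 and 3.20 times the blank, and the log2 difference was 0.06 ± 0.16 (95% interval -0.27 to 0.40). That interval does not hold the value of either of the other antibodies to the protein. Which of the 5 mouse Cyp2b proteins in RefSeq each antibody bound is not known.

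POR is the flavoprotein that hands electrons from NADPH to every microsomal P450. It read 20.1, 29.7 and 31.5 RFU in the PB livers and 9.90, 11.1 and 8.12 in the others. No values overlapped, though PB liver 4 was clearly the lowest of its group. The log2 difference was 1.25 ± 0.25 (limma adjusted p = 0.00965, 95% interval 0.71 to 1.79). POR was lost without PB liver 5 (adjusted p = 0.0652), PB liver 6 (0.0588) or no-PB liver 3 (0.0605), while the difference stayed between 1.17 and 1.39 log2 over the samples left out. Under quantile normalization the difference was 0.37 log2. Cytochrome b5 (CYB5A), another electron donor of P450s, which was named after its values were seen, read 2.71, 3.14 and 2.90 RFU with PB and 1.88, 2.29 and 1.60 without. Its groups did not overlap either, but the log2 difference of 0.40 ± 0.20 did not pass (adjusted p = 0.4975).

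The CYP3A antibodies gave 3 different pictures of a family that metabolises the widest range of drugs. CYP3A4_2 read 2.65, 1.17 and 5.94 RFU with PB and 0.345, 0.619 and 0.948 without. The PB values spread most widely, and after centring PB liver 5 lay just below no-PB liver 3. The log2 difference was 1.96 ± 0.66 (adjusted p = 0.2665), and 1.43 ± 0.70 without PB liver 6. CYP3A4_1 read 5.66, 6.35 and 7.26 RFU with PB against 4.99, 4.39 and 3.54, without overlap, and had a log2 difference of 0.37 ± 0.21 (adjusted p = 0.5802), which was -0.27 under quantile normalization. The signal of CYP3A5 was 0.492, 0.492 and 0.556 RFU with PB and 0.423, 0.477 and 0.379 without, which overlapped after centring, a log2 difference of 0.06 ± 0.14. RefSeq lists 9 mouse Cyp3a genes, and neither human name is among them.

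UGT1A1 conjugates bilirubin and many drugs with glucuronic acid and is a known CAR target. It read 7.56, 12.7 and 8.22 RFU with PB and 4.58, 4.30 and 3.74 without. Each PB liver was above each no-PB liver, with PB liver 5 the highest. The log2 difference of 0.93 ± 0.32 did not pass (adjusted p = 0.2665), and it passed in 2 of the 17 alternatives, without centring (adjusted p = 0.0301) and with array weights (0.0349). Under quantile normalization the difference was 0.26 ± 0.28. RXRA, the partner of CAR on DNA, read 1.24, 1.52 and 1.65 RFU with PB against 1.19, 1.45 and 1.13. This was the smallest difference in the list, 0.01 ± 0.12 log2 (95% interval -0.24 to 0.27), and CAR itself had no antibody.

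The symbols POR and UGT1A1 each match 1 mouse gene. RefSeq lists 9 mouse Ugt1a genes, however, and which of their proteins the UGT1A1 antibody bound is not known. The 250 bases before the annotated starts of Por and Ugt1a1 are shown (RefSeq, GRCm38.p6, plus strand). Both proteins read above every no-PB liver in every PB liver, although UGT1A1 did not pass. CYP1A1, CYP1A2 and CYP2E1 also match a mouse symbol and had antibodies without overlap, but their windows are not shown. Por lies at chr5:135670040-135735326 and the start used in the table is inside that span. Ugt1a1 lies at chr1:88211959-88220002. Capitals mark any AGGTCA or AGTTCA, on either strand (TGACCT or TGAACT), hexamers that nuclear receptors are known to bind.
Por, chr5:135688895-135689144: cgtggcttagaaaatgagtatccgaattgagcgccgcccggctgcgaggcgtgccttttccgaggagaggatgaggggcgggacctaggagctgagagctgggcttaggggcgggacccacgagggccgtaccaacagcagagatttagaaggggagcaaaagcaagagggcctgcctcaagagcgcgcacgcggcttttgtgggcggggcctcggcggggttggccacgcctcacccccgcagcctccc
Ugt1a1, chr1:88211709-88211958: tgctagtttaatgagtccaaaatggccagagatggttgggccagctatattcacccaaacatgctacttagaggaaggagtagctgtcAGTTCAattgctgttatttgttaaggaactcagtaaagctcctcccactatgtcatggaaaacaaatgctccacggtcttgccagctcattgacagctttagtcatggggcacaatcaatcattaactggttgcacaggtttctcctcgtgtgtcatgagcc
The Por window held none of these letters and the Ugt1a1 window held 1 match, its first base at position -162 relative to the start. Of 32851 such windows of mouse genes, 24.2% held at least 1 match. The array measured no binding, and PB-responsive enhancers are known to lie farther from many of these genes.

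Other P450s of the area around the central vein also read higher with PB in part of their antibodies, and none of them passed. CYP1A2_1, against an enzyme that metabolises caffeine and aromatic amines, read 8.15, 9.56 and 8.33 RFU with PB and 2.01, 2.18 and 1.54 without. The 3 PB livers were alike and about 4-fold above the others (3.96-fold), yet the log2 difference of 1.99 ± 0.75 did not pass (adjusted p = 0.3458). In the fit of the 6 control livers alone its SE was 0.13 and it passed (adjusted p = 2.2e-04). CYP1A2_2 gave 0.392, 0.452 and 0.593 RFU against 0.362, 0.456 and 0.347, which overlapped, a log2 difference of 0.08 ± 0.18. CYP2E1, the ethanol-inducible P450 that also activates nitrosamines such as DEN, was read by 2 antibodies that were both higher in every PB liver. CYP2E1_1 read 1.20, 1.56 and 1.38 RFU against 0.596, 0.704 and 0.615, a log2 difference of 0.90 ± 0.43 (adjusted p = 0.4975, and 0.00287 in the 6 control livers alone). CYP2E1_2 read 20.2, 24.0 and 23.7 RFU against 8.16, 11.04 and 17.2, a log2 difference of 0.75 ± 0.51 with no-PB liver 3 nearest to the PB livers, and of 0.02 ± 0.42 under quantile normalization.

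CYP1A1, a P450 induced through the aryl hydrocarbon receptor, had 2 antibodies. CYP1A1_1 read 0.978, 1.01 and 1.08 RFU with PB and 0.485, 0.686 and 0.585 without, a log2 difference of 0.60 ± 0.30 without overlap (adjusted p = 0.4975). CYP1A1_2 read 1.81 to 2.25 RFU against 1.27 to 1.70, which overlapped after centring (log2 0.17 ± 0.13). The remaining members of the list did not pass. CYP2D6, a P450 that is not known as inducible in humans, read 11.8, 13.2 and 15.2 RFU against 10.2, 10.8 and 7.61 (log2 0.28 ± 0.13, unadjusted p = 0.0418, adjusted p = 0.4975). CYP4F2, which hydroxylates fatty acids and vitamin K, read 0.362 to 0.461 RFU against 0.267 to 0.333 (log2 0.27 ± 0.13, adjusted p = 0.4975). The paraoxonases PON1 and PON3, esterases made in liver that stand outside the list (PON1 was named after its values were seen), were also higher in each PB liver, by 0.25 ± 0.13 and 0.33 ± 0.13 log2 (adjusted p = 0.504 and 0.346).

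Antibodies to the same protein thus gave different sizes for CYP2B6, CYP3A4, CYP1A2 and CYP1A1. The antibody with the small difference was matched to an anti-mouse blank in CYP2B6_2, CYP1A2_2 and CYP1A1_2, and to an anti-rabbit blank in CYP3A4_1. An anti-mouse secondary is known to bind mouse immunoglobulin in the tissue as well. PB liver 6 had the highest reading of the 6 livers in all 5 anti-mouse blanks, with a geometric mean of 0.575 RFU against 0.217 to 0.375 in the other 5 livers. It was also the highest in the anti-goat blanks, by less (0.141 against 0.0783 to 0.114), and level with the next liver in the anti-rabbit blanks (0.155 against 0.106 to 0.154). The anti-rabbit blanks were not all even. The blank matched to EGFR_P-Y845, AKT1_P-S473 and HDAC6 read 0.189 and 0.143 RFU in no-PB livers 2 and 3. In the other control livers that blank read 0.0488 to 0.0655. Of the 18 drug metabolism antibodies, 6 were matched to an anti-mouse blank (CYP1A1_2, CYP1A2_2, CYP2B6_2, CYP2D6, CYP3A4_2 and RXRA). The 3 that passed are matched to anti-rabbit blanks and read at least 11.4 times their blank with PB on average. With the blanks subtracted, the same 3 antibodies passed and CYP3A4_2 differed by 2.37 ± 0.90 log2. Without PB liver 6, CYP2C8 and CYP2B6_1 passed and POR did not. PON1 and PON3 were also matched to an anti-mouse blank. PON1 averaged 53.3 times it with PB and 51.4 without, and PON3 4.40 and 4.05. The part of the anti-mouse background in the other differences was not tested.

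**Figure D3:**
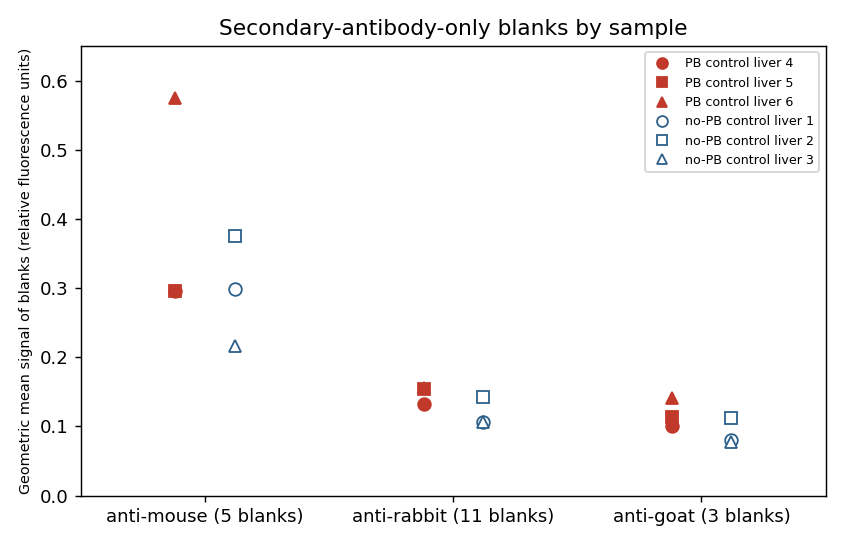
Geometric mean signal of the secondary-antibody blanks (relative fluorescence units, linear axis from 0) by species of the secondary antibody, 1 point per control liver. PB control liver 6 stands at 0.575 in the anti-mouse blanks, above the other 5 livers, also above them in the anti-goat blanks, and level with the next in the anti-rabbit blanks.

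GLUL, which makes glutamine from ammonia in the hepatocytes next to the central vein, varied widely within both groups. It read 17.8, 27.9 and 2.27 RFU in the PB livers and 5.87, 1.18 and 1.21 in the others. PB liver 6 lay below no-PB liver 1, so the groups overlapped, and the log2 difference was 2.15 ± 1.45 (adjusted p = 0.5984), and 3.31 without PB liver 6. After centring, PB liver 6 was the lowest PB liver for CYP1A2_1 and, by little, for both CYP2E1 antibodies. In the uncentred signals PB liver 4 was the lowest PB liver for each of them. PB liver 6 stayed above every no-PB liver in each, though for CYP2E1_2 narrowly after centring (5.27 log2 against 5.25 in no-PB liver 3). CTNNB1 (beta-catenin) had a log2 difference of -0.07 ± 0.43 (0.14 without centring). Its protein kinase A site CTNNB1_P-S675 differed by 0.27 ± 0.21 log2, and its sites CTNNB1_P-T41/S45 by 0.22 ± 0.18. APC, a scaffold of the beta-catenin destruction complex, was higher in each PB liver (0.44 ± 0.22 log2), but it was dim in all 6 and turned to -0.64 ± 1.63 with blanks subtracted. None of the 9 antibodies of this list passed.

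**Figure D4:**
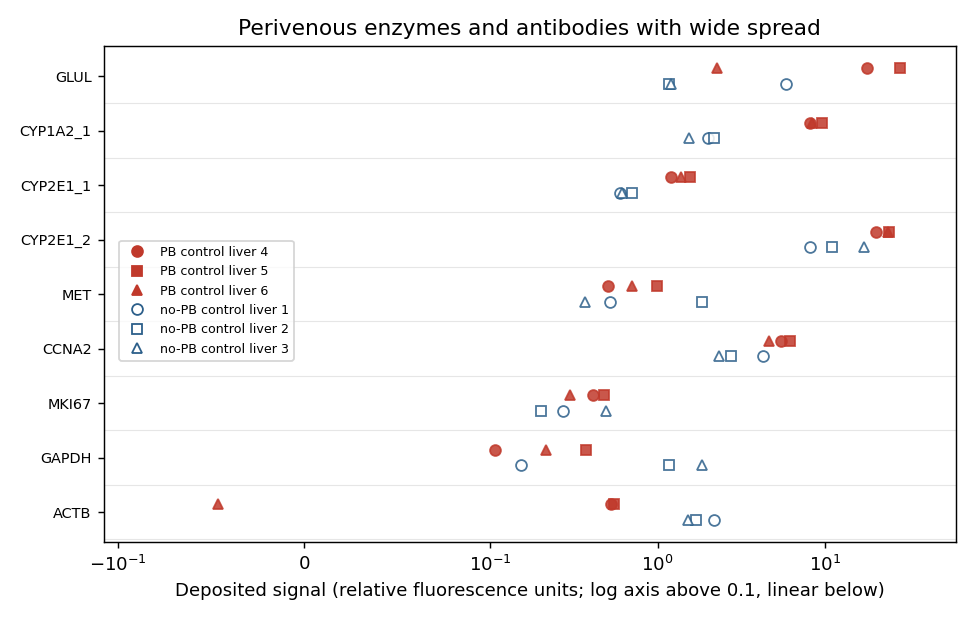
Deposited signal (relative fluorescence units; log axis above 0.1 and linear below) of 9 antibodies in 3 PB (filled red) and 3 no-PB control livers (open blue). GLUL, MET, MKI67 and GAPDH overlap between the groups with wide spread, while CYP1A2_1 and both CYP2E1 antibodies separate them.

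The receptor through which PB is known to act could be followed only near background. EGFR read 0.161, 0.152 and 0.236 RFU with PB and 0.181, 0.214 and 0.156 without, and was dim in all 3 PB livers (1.67 times its blank on average) but not in the others (2.42 times). The log2 difference was -0.23 ± 0.16 (95% interval -0.57 to 0.11, adjusted p = 0.598). With blanks subtracted it was -0.86 ± 0.41, and without centring -0.02. EGFR_P-Y1068, the docking site for GRB2, and EGFR_P-Y1045, the docking site for the ubiquitin ligase CBL, were dim in all 6 livers (-0.20 ± 0.25 and 0.19 ± 0.17 log2), and the second turned to -0.65 with blanks subtracted. EGFR_P-Y845, a SRC site, differed by 0.05 ± 0.13 log2, but was dim in 2 no-PB livers and differed by 1.84 ± 0.65 with blanks subtracted. Its blank averaged 0.0631 RFU in PB and 0.127 in no-PB livers, so no direction is given for it. MET, the receptor for hepatocyte growth factor, read 0.508, 0.992 and 0.709 RFU with PB and 0.519, 1.85 and 0.367 without, with no-PB liver 2 far above the rest. Its log2 difference was -0.20 ± 0.40, and 0.43 ± 0.25 without that liver. MET_P-Y1349 differed by 0.09 ± 0.15, and PTPN11, a phosphatase that relays receptor signals, by 0.16 ± 0.13. None of the 10 receptor tyrosine kinase antibodies passed.

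In the MAPK/ERK cascade, with 18 antibodies, none passed. ELK1, a transcription factor phosphorylated by ERK, read 0.988, 1.35 and 1.66 RFU against 1.90, 1.59 and 1.39, and differed by -0.52 ± 0.23 log2 (adjusted p = 0.4975). Its uncentred signals overlapped, and its centred ones did not. Phosphorylated ERK1 (MAPK3_P-T202/Y204) read 1.35, 1.32 and 1.64 RFU with PB and 1.504, 1.46 and 1.34 without. That is a log2 difference of -0.21 ± 0.24 (95% interval -0.72 to 0.29), and it was 0.00 without centring. HRAS (-0.07 ± 0.13, and 0.14 without centring), MAP2K1 (-0.26 ± 0.23), MAP2K1_P-S217/S221 (0.10 ± 0.17), MAP2K2 (0.06 ± 0.14) and MAPK3 (0.12 ± 0.18) did not pass. DUSP4, a phosphatase that switches off ERK, was higher in each PB liver (0.36 ± 0.14 log2, adjusted p = 0.366) and dim in all 6.

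**Figure D5:**
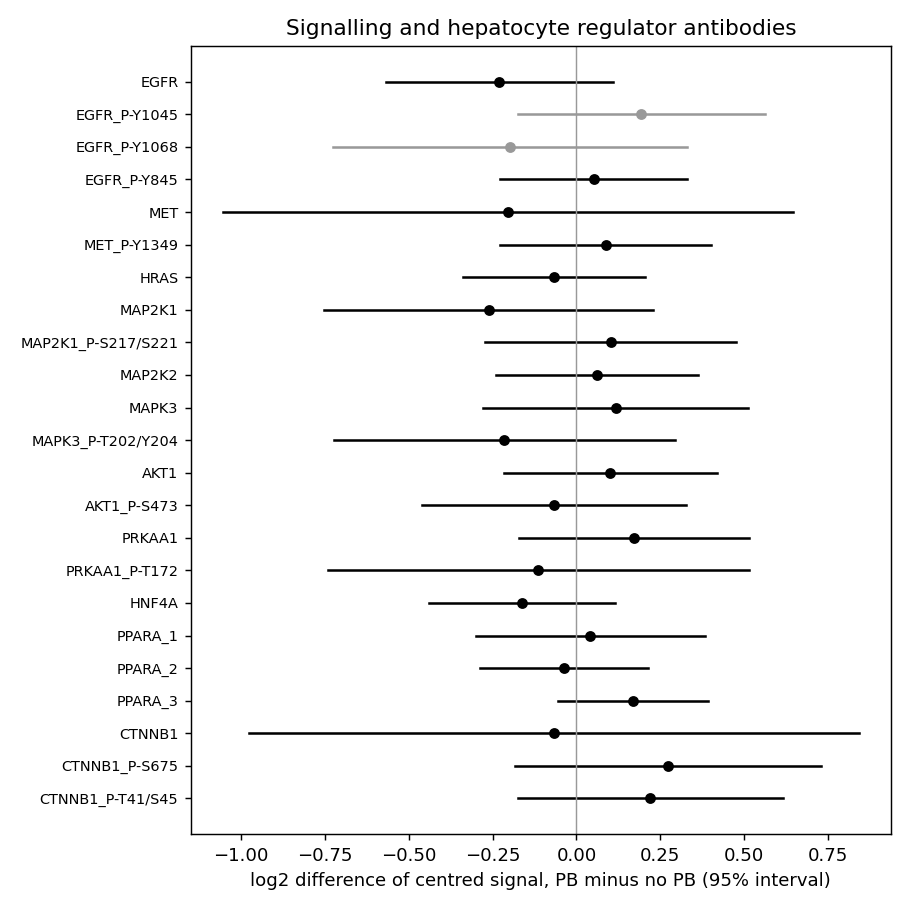
Log2 difference of the centred signal (PB minus no PB, point) with its 95% interval from limma (line) for 23 antibodies to receptors, the ERK cascade, Akt, AMPK, hepatocyte regulators and beta-catenin, in grey where dim in all 6 livers. Every interval shown includes 0, and the widest belongs to CTNNB1.

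None of the 8 antibodies to energy sensing and nuclear receptor proteins passed, and their median difference was 0.00 log2. PRKAA1, the catalytic subunit of AMPK, which PB is known to activate in hepatocytes, differed by 0.17 ± 0.16 log2. Its activating site PRKAA1_P-T172 read 2.05, 1.73 and 2.49 RFU with PB and 2.41, 1.86 and 1.61 without, with full overlap and a log2 difference of -0.11 ± 0.29 (95% interval -0.74 to 0.52), which was 0.10 without centring. HNF4A, a transcription factor that maintains hepatocyte genes, differed by -0.16 ± 0.13, and by 0.05 without centring. The 3 antibodies to the fatty acid sensor PPARA differed by 0.04 ± 0.16, -0.04 ± 0.12 and 0.17 ± 0.10. AKT1 and its site AKT1_P-S473 differed by 0.10 ± 0.15 and -0.07 ± 0.18, and the site by 0.71 ± 0.51 with blanks subtracted. In the PI3K/Akt/mTOR and translation list (19 antibodies, none passed), the smallest p values belonged to PDK1 (0.18 ± 0.13) and EIF2A_P-S51 (0.19 ± 0.14), both dim in all 6 livers, and PDK1 turned to -0.06 with blanks subtracted.

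Of the 11 cell cycle antibodies none passed. CCNA2, a cyclin of S phase, read 5.47, 6.15 and 4.65 RFU with PB and 4.25, 2.75 and 2.33 without, which overlapped after centring. Its log2 difference was 0.63 ± 0.43 (adjusted p = 0.598). MKI67, the Ki-67 proliferation marker, read 0.412, 0.482 and 0.300 RFU against 0.273, 0.203 and 0.495 and overlapped (0.16 ± 0.53, 95% interval -0.97 to 1.29). Both were named after their values were seen. AURKA_P-T288, the activating site of a mitotic kinase, differed by -0.45 ± 0.27, and CDKN1B (p27, a brake on the cell cycle) by 0.32 ± 0.19 while dim in all 6 livers. The 13 JAK, STAT and NF-kB antibodies had a median difference of 0.00 log2, with STAT3_P-S727 (0.35 ± 0.17) and STAT5A (0.32 ± 0.16) leading by p and dim in 5 of the 6 livers each. JUN (0.30 ± 0.19, and -0.04 with blanks subtracted) and MAP3K7_P-S412 (0.32 ± 0.20), the leading stress kinase antibodies, were dim in all 6. Of 6 apoptosis antibodies none passed, and BAX, which permeabilises mitochondria, differed by 0.19 ± 0.22.

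Of 11 chromatin antibodies, HIST1H3A_P-S10, a histone H3 mark of mitosis and gene activation, differed by -0.67 ± 0.30 log2 (unadjusted p = 0.0429, adjusted p = 0.4975). It was dim in all 6 livers, at 0.0854 to 0.108 RFU with PB and 0.0887 to 0.195 without. HDAC6, a cytoplasmic deacetylase, differed by -0.45 ± 0.26, and by -0.10 without no-PB liver 3. It was dim in 1 PB and 2 no-PB livers. HDAC6 and HIST1H3A_P-S10 share the blank of EGFR_P-Y845, which averaged 0.0631 RFU in PB and 0.127 in no-PB livers. Relative to it they averaged higher with PB (HDAC6 2.07 against 1.499 times, HIST1H3A_P-S10 1.51 against 1.28 times). With blanks subtracted HIST1H3A_P-S10 differed by -0.86 ± 0.66, and HDAC6 stayed below 0 in all 17 alternatives. The part of the blank in both differences was not tested. The most negative differences on the array were those of GAPDH, a glycolytic enzyme, and ACTB (beta-actin), both common loading references, and neither passed. GAPDH read 0.107, 0.372 and 0.215 RFU with PB and 0.153, 1.16 and 1.85 without, so no-PB liver 1 lay with the PB livers (log2 -1.97 ± 0.89, adjusted p = 0.4975). The difference was -3.05 without that liver and -1.20 without no-PB liver 3. ACTB read 0.529 and 0.551 RFU in PB livers 4 and 5 and 2.16, 1.69 and 1.51 in the others. The value of PB liver 6 was -0.0459 and was dropped from the fit, which gave -1.86 ± 0.97 (adjusted p = 0.504). In the 6 control livers alone ACTB passed as lower (adjusted p = 0.00221), with the same 5 values. ILK, the other leading antibody of the adhesion and cytoskeleton list, differed by 0.15 ± 0.15.

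Phosphorylation relative to the total protein was compared in 46 pairs of antibodies. None passed in limma (0% called), and 3 had an unadjusted p under 0.05 (6.52%). AURKA_P-T288 relative to AURKA differed by -0.73 ± 0.29 and EGFR_P-Y1045 relative to EGFR by 0.42 ± 0.20 (0.21 ± 0.58 with blanks subtracted), with AURKA and EGFR_P-Y1045 dim in all 6 livers. The AURKA pair passed without no-PB liver 1 (log2 -1.14, adjusted p = 0.0127).

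The precision was set by 3 samples on each side. An exact permutation test of 3 against 3 cannot give a two-sided p below 0.10, so each single value rests on the limma fit across all antibodies. The median 95% interval reached 0.37 log2 to either side of the estimate over all 158 antibodies. Of the 140 antibodies outside the drug metabolism list, 134 (95.7%) differed by less than 0.5 log2 and 3 by more than 1 log2 (GLUL, GAPDH and ACTB). In the fit of the 6 control livers alone 7 antibodies were higher and 1 lower, and the 7 were all in the drug metabolism list: CYP2C8, CYP2B6_1, CYP2B6_3, POR, CYP1A2_1, CYP2E1_1 and CYP1A1_1. The median SD within a group was 0.108 log2 in PB and 0.144 in no-PB control liver, against 0.213 in Ctnnb1 and 0.205 in Ha-ras tumors.

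The tumors of each arm are given for scale only. In the 7 Ctnnb1 tumors, also on PB, CYP2C8 read from 4.39 to 10.1 RFU (median 7.83), a range that holds all 3 PB control livers, and POR from 12.9 to 32.1 (median 25.3). In the 3 Ha-ras tumors without PB, CYP2C8 read from 0.421 to 0.548 RFU and POR from 3.81 to 5.66, below every no-PB control liver. CYP2B6_1 read from 0.197 to 0.302 RFU there, a range that holds all 3 no-PB control livers.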

How the data were processed

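Signals of 16 mouse liver samples were used, of which 6 enter the comparison. Per the labels' protocols, deep-frozen tissue was crushed and dissolved in a denaturing buffer, and bound antibodies were detected with fluorescent secondary antibodies. Per the file headers, the deposited value is an intensity, the relative fluorescence of each of 183 rows (158 antibodies, 19 blanks and 6 fluorophore reference rows), and the sources used here do not say how it was scaled. The authors' deposited value table holds log2 values centred on the control livers of each arm, so it cannot give this comparison. It served only to match antibodies to blanks: 144 fitted 1 blank within 0.01 log2 in at least 12 samples, 1 fitted without a blank, and 13 did not match and were set against the median blank.

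Groups came from the sample titles. Signals above 0 were log2 transformed, and the sample median over the 155 antibodies with a positive signal in every sample was subtracted. One limma fit (R 4.3.3, limma 3.58.1) of 4 group means over 16 samples (12 residual and 2.65 prior degrees of freedom) gave differences, standard errors, 95% intervals and p-values, adjusted by Benjamini-Hochberg over 158 antibodies or 46 pairs. The fit was tested on simulated data. Blanks were left in the signals, and subtracting them moved differences of dim antibodies in both directions. The number of samples limits the precision. Alternatives were other scalings, blank subtraction, a filter on dim antibodies, the 6 livers alone, other treatment of non-positive values, array weights, another variance prior, a replicate block and each liver left out. The blank matching and the dim limit were chosen after the data were seen.

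The members, lists and tests were chosen with earlier results of these data known. Named were all antibodies at an unadjusted p under 0.05, the whole drug metabolism list, antibodies to EGFR, MET, AMPK, HNF4A, PPARA, GLUL, beta-catenin, Ras, ERK, MEK and AKT, the 2 members with the smallest p of every other list, and pairs at an unadjusted p under 0.05. A few antibodies and pairs that this rule names are not reported here. Of 101 protein symbols, 91 match a mouse symbol in RefSeq (GRCm38.p6).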

Additional observations from a re-analysis of the deposited data

Results flagged for a closer look

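The secondary-antibody blanks are not part of the comparison, and they held a signal that set 1 PB liver apart. The anti-mouse blanks of PB control liver 6 had a geometric mean 1.53 times that of the highest no-PB control liver, and PB control liver 6 was the highest of the 6 livers in 5 of 5 anti-mouse blanks and in 8 of the 14 others.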

How the results depend on the processing

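CYP2C8 and CYP2B6_1 were called higher under all 17 alternatives (adjusted p up to 5.2e-04 and 0.0282), and POR under 13. The number of antibodies called higher, 3, became 5 without centring and with array weights, and 7 in the 6 control livers alone, and the drug metabolism list held all of them (5, 5 and 7). The number called lower, 0, became 1 under quantile normalization (MAP2K1) and 1 in the 6 control livers alone (ACTB). The pairs called, 0, became 1 under quantile normalization (MAP2K1_P-S217/S221 relative to MAP2K1). The median log2 difference of the drug metabolism list, 0.68, was 0.89 without centring and 0.22 under quantile normalization, which left 15 of its 18 differences above 0, as did blank subtraction and leaving out PB control liver 6 (16 without no-PB control liver 3). With each liver left out in turn, 2 to 3 antibodies were called higher, 0 lower, 2 to 3 in the list and 0 to 1 pairs, and the list's median lay between 0.49 and 0.79, the lowest without no-PB control liver 1. The other settings kept the counts at 3 higher and 0 lower. No paired analysis was possible because PB livers carry numbers 4 to 6 and no-PB livers 1 to 3. With arm and number as a random replicate block over all 16 samples, CYP2C8, CYP2B6_1 and POR passed as before. Differences of antibodies near their blank are limited by the blank, and the causes of the changes between settings were not tested.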
